A study of Homo sapiens with 6 samples.

Results

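Semaphorins, plexins and neuropilins are the ligands and receptors of one cell guidance system, and their transcripts were compared between Kelly neuroblastoma cells with and without siRNA against METTL3. The members were chosen by gene symbol alone: symbols that begin with SEMA3 to SEMA7 or with PLXNA, PLXNB, PLXNC or PLXND, together with NRP1 and NRP2. The rule uses no measured value, although the family was picked with earlier results of these data known. This gave 31 of the 19923 protein-coding genes in the count tables, namely 20 semaphorin, 9 plexin and 2 neuropilin genes. All 31 were expressed highly enough to be tested.

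Kelly is an established human neuroblastoma line that carries an amplified MYCN gene, per the labels, and both groups have the genotype the labels call WT. The 3 siControl libraries come from cells given a control siRNA and the 3 siMETTL3 libraries from cells given an siRNA against METTL3, each for 72 hours after lipid transfection. METTL3 is the catalytic subunit of the enzyme complex that writes N6-methyladenosine (m6A) into mRNA. The labels do not say how many siRNA sequences were used or whether the replicates were separate cultures, so the p-values measure only the spread between these libraries, which may be technical.

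Semaphorins share an extracellular sema domain and bind plexins, whose cytoplasmic part holds a GTPase-activating domain for small GTPases of the Ras and Rap type. Class 3 semaphorins are secreted and mostly need a neuropilin as the ligand-binding partner of an A-type plexin, whereas classes 4 to 6 span the membrane and class 7 is held by a lipid anchor. In the sympathetic lineage, from which neuroblastoma arises, class 3 semaphorins and neuropilins are known to guide migrating neural crest cells and growing axons.

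The promoters of 4 members are shown because these members carry the largest changes in each direction described below: PLXNA2 and SEMA5B were the largest rises, SEMA3E and PLXNB1 the largest falls. Each is the 300-base RefSeq window (GRCh38.p14) from 250 bases before to 50 bases after a transcription start that coincides with the gene start in the count tables. All 4 genes lie on the minus strand, and the sequences read 5′ to 3′ in the direction of transcription, with capitals marking matches on either strand to CACGTG (the E-box bound by MYC family proteins) or to GGGCGG (the GC box). The windows are chr1:208244335-208244634 for PLXNA2, chr3:123028556-123028855 for SEMA5B, chr7:83649090-83649389 for SEMA3E and chr3:48430037-48430336 for PLXNB1.
PLXNA2: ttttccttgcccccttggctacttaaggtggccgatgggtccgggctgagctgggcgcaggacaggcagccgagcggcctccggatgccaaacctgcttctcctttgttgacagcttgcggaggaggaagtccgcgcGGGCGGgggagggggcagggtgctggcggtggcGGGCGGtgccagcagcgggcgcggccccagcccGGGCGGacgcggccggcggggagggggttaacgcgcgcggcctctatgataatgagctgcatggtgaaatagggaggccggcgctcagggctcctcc
SEMA5B: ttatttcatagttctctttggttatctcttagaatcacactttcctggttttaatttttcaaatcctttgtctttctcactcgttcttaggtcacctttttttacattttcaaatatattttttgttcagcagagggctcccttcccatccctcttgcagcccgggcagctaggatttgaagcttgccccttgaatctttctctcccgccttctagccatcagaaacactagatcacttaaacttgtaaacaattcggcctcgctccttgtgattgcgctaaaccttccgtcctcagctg
SEMA3E: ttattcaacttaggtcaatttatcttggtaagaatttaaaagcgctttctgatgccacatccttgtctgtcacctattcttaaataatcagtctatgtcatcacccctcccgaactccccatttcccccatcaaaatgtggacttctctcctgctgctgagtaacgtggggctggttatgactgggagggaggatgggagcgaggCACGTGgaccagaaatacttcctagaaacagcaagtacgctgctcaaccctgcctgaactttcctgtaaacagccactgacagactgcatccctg
PLXNB1: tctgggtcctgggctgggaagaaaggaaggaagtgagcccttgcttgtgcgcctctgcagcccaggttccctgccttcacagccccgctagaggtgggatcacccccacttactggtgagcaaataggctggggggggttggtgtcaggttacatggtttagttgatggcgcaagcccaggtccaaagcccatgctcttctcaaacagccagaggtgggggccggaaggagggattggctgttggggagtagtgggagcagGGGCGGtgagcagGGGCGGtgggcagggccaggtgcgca

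The PLXNA2 window held 3 GC boxes and the PLXNB1 window held 2. The SEMA3E window held 1 E-box, and the SEMA5B window held neither motif. Windows at other starts of these genes differed. A SEMA5B start 842 bases away had 2 GC boxes in its window, and a PLXNB1 start 742 bases away had 5. A further SEMA5B window and the other SEMA3E window held neither motif. RefSeq promoter windows were matched for 27 of the 31 members, in 48 entries, since a gene can have several starts. An E-box was present in 3 of these 48 entries (6.25%), against 7.26% of all 35116 windows of that length and 8.84% of the windows of tested genes. A GC box was present in 64.6% of the members' windows and in 62.8% of those of tested genes. A match is a run of letters and not evidence of binding.

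Total counts per library ranged from 15430000 in siControl replicate 3 to 21565013 in siMETTL3 replicate 2, and the 31 members together took between 0.217% and 0.254% of them. METTL3 itself had 53.5, 52.8 and 56.2 CPM (the read count relative to the scaled library size) in the siControl libraries and 32.99, 31.8 and 34.3 CPM in the siMETTL3 libraries, a log2 fold change of -0.71 (SE 0.070, edgeR adjusted p = 4.68e-06). The labelled cell type was checked by markers. The summed CPM of 9 sympathetic neuroblastoma genes (such as HAND2, DBH and MYCN) was 6214 to 6677 in siControl and 9102 to 9697 in siMETTL3. Of these genes, 7 were higher and 1, ISL1, was lower. MYCN, the largest part of the sum, had a mean of 3021 CPM in siControl and 4638 CPM in siMETTL3. The sum of 8 mesenchymal or Schwann-like markers lay between 137 and 147 CPM in siControl and between 110 and 121 CPM in siMETTL3, with 2 higher and 2 lower. Sums of 3 endothelial, 3 haematopoietic and 3 epithelial markers were at most 9.25 CPM in any library, and KRT5 had 0 counts throughout. Marker shifts moved with the groups, and their part in the results below was not tested. In bulk RNA, fewer cells that express a gene and less RNA of it per cell cannot be told apart.

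In the comparison of siMETTL3 with siControl, 16 of the 31 members (51.6%) passed an adjusted p of 0.05 in edgeR's quasi-likelihood test, 8 of them higher and 8 lower in siMETTL3. Over all 15311 tested genes, 37.8% passed, with 18.6% higher and 19.2% lower. For 21 members (67.7%) the ranges of both groups were separate, against 49.9% of all tested genes. The median log2 fold change of the members was 0.12 and that of all tested genes was -0.0021, while the median absolute log2 fold change was 0.31 against 0.21. Members that rose at least 2-fold were PLXNA2 and SEMA5B, where 2.74% of all tested genes did so. Without siControl replicate 3, the shallowest library, 7 members were higher and 10 lower. That fit called 40.5% of all tested genes, 3067 higher and 3201 lower.

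**Figure D1:**
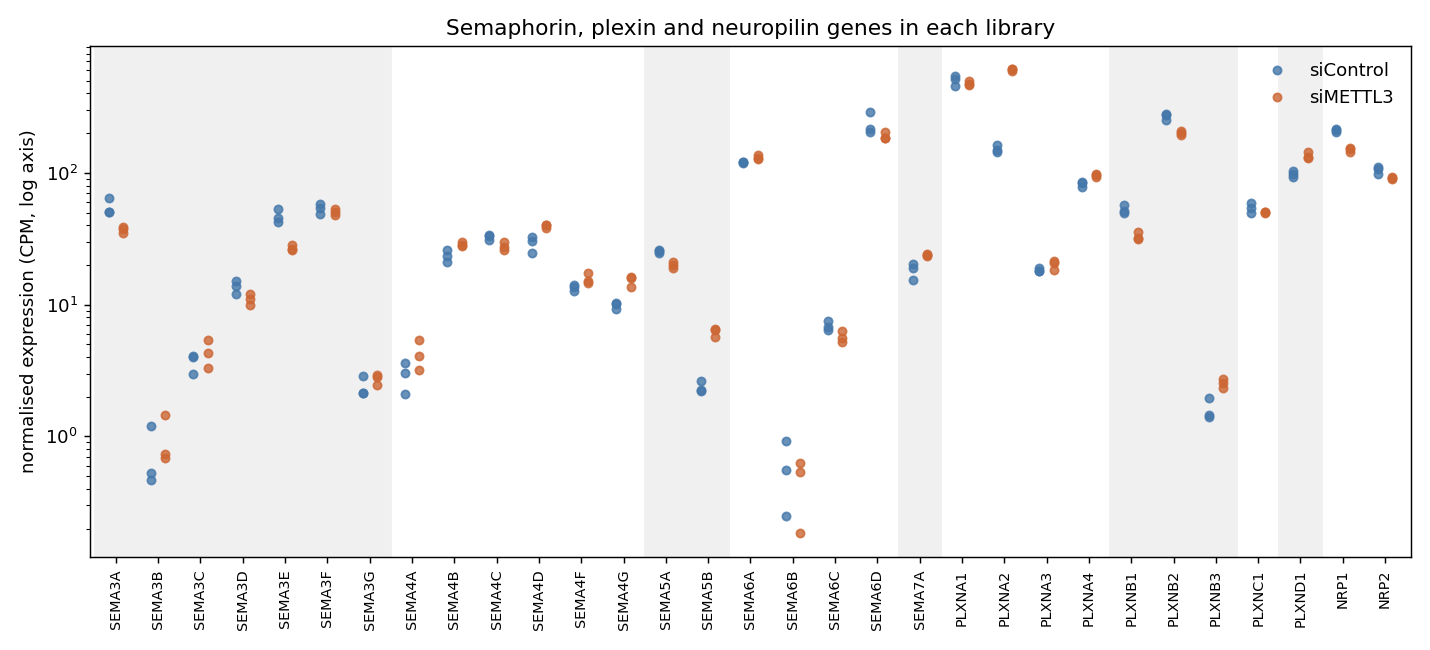
Normalised expression (CPM, log axis) of the 31 members in each of the 6 libraries, 3 points per group, with grey and white bands separating the classes. PLXNA2 moves from between 143 and 162 CPM in siControl to between 591 and 612 CPM in siMETTL3, whereas SEMA3B and SEMA6B stay below 1.5 CPM in every library.

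**Figure D2:**
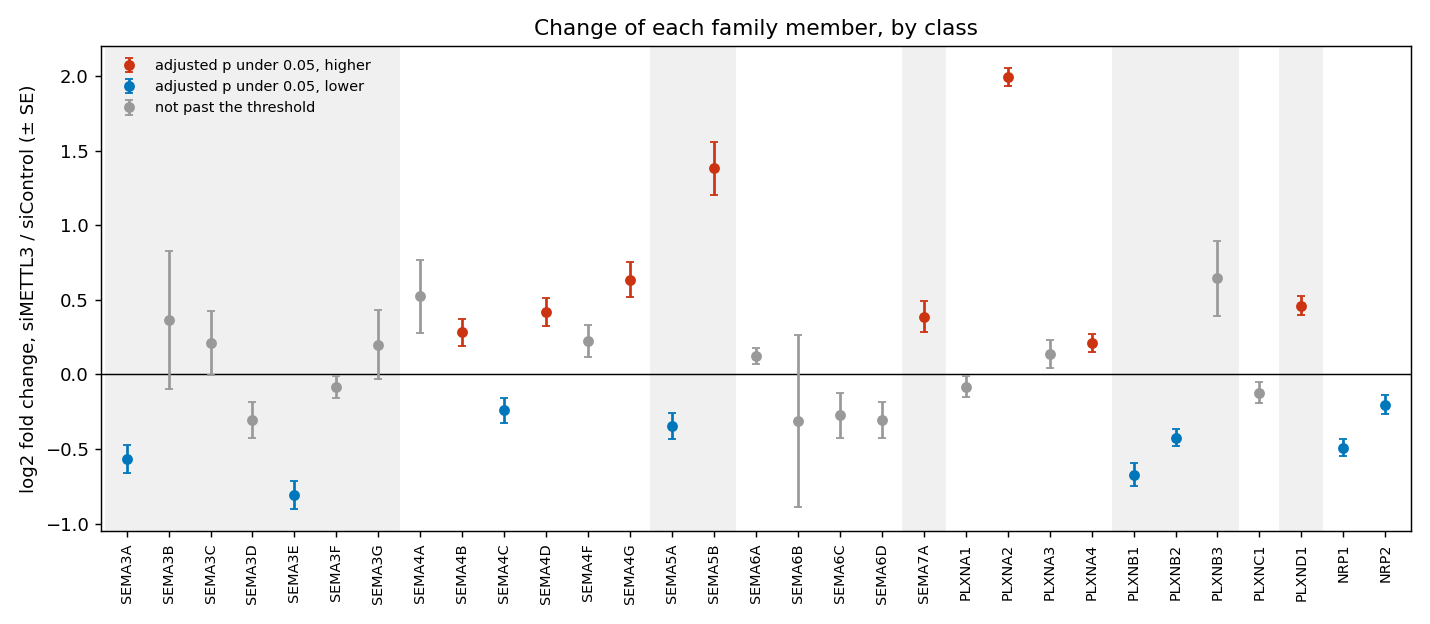
Log2 fold change of each member (siMETTL3 against siControl, point) with its standard error (bar), ordered by class and coloured by the edgeR call. Calls fall on both sides of 0 and range from -0.81 for SEMA3E to 1.99 for PLXNA2.

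Of the 7 secreted class 3 semaphorins, 2 (28.6%) passed the threshold, against 37.8% of all tested genes. These were SEMA3A and SEMA3E, and both fell. SEMA3E, which signals through PLXND1 without needing a neuropilin, measured 45.1, 42.3 and 53.4 CPM in the siControl libraries and 26.3, 25.8 and 28.2 CPM in the siMETTL3 libraries. The groups did not overlap, and the log2 fold change was -0.81 (SE 0.092, edgeR adjusted p = 1.72e-05), which left 57.1% of the control level. SEMA3A, the prototype axon repellent that acts through NRP1, measured 50.3, 50.9 and 64.0 CPM in siControl and 35.0, 37.5 and 38.5 CPM in siMETTL3. Every siMETTL3 library lay below every siControl library, with siControl replicate 3 highest, and the log2 fold change was -0.57 (SE 0.092, edgeR adjusted p = 0.000352).

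The other class 3 members were below the threshold. SEMA3D, a paralogue next to SEMA3A on chromosome 7, had a log2 fold change of -0.31 (SE 0.12, edgeR adjusted p = 0.0613) without overlap of the groups. It passed in 5 of the 18 alternative fits, among them that without siControl replicate 2 (adjusted p = 0.0460, range 0.00705 to 0.206 over all alternatives). SEMA3F, which binds NRP2, ranged from 49.0 to 58.0 CPM in siControl and from 48.1 to 53.6 CPM in siMETTL3, so that its groups overlapped (log2 fold change -0.084, SE 0.076). SEMA3B, SEMA3C and SEMA3G were expressed at no more than 5.36 CPM in any library, and their log2 fold changes of 0.37, 0.21 and 0.20 had standard errors of 0.46, 0.21 and 0.23. The summed CPM of the class went from 176 ± 10.1 (SD, n = 3) to 133 ± 6.39 (SD, n = 3), a sum in which SEMA3A, SEMA3E and SEMA3F hold most of the counts.

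Among the 13 membrane-bound semaphorins, 5 (38.5%) were higher and 2 (15.4%) were lower, against 18.6% and 19.2% of all tested genes. Class 4 held 4 of these calls in 6 genes (66.7%, against 37.8% of all tested genes). SEMA4G measured 9.23, 10.2 and 10.1 CPM in siControl and 16.3, 13.6 and 15.9 CPM in siMETTL3, a log2 fold change of 0.64 (SE 0.12, edgeR adjusted p = 0.000776). The whole SEMA4G span lies inside that of MRPL43, a mitochondrial ribosomal protein gene on the opposite strand, and the counts were made without regard to strand, so reads of both genes can be in this value. A read over both genes counted for each, so the MRPL43 value is not independent of that of SEMA4G. MRPL43 had a log2 fold change of 0.24 (edgeR adjusted p = 0.0393, range 0.0211 to 0.142 over all alternatives).

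SEMA4D, the ligand of PLXNB1 that is also known as CD100, measured 32.8, 30.5 and 24.8 CPM in siControl and 40.1, 40.2 and 38.2 CPM in siMETTL3. The groups were separate, siControl replicate 3 was lowest, and the log2 fold change was 0.42 (SE 0.095, edgeR adjusted p = 0.00335). SEMA4B measured 23.5, 26.0 and 21.2 CPM in siControl and 29.8, 27.9 and 28.4 CPM in siMETTL3 (log2 fold change 0.28, SE 0.091, edgeR adjusted p = 0.0252). That call was lost without siControl replicate 3 and without each siMETTL3 library, and with an offset for gene span (adjusted p from 0.0179 to 0.127 over all alternatives).

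SEMA4C, a ligand of PLXNB2, went the other way, from 33.4, 33.5 and 30.9 CPM in siControl to 27.4, 29.7 and 25.9 CPM in siMETTL3. Its log2 fold change was -0.24 (SE 0.083, edgeR adjusted p = 0.0347), and the call was lost in 6 of the 18 alternative fits. These were DESeq2, total count scaling and the fits without siControl replicate 1 or 2 or without siMETTL3 replicate 1 or 3 (adjusted p from 0.0111 to 0.140 over all alternatives). SEMA4A and SEMA4F had log2 fold changes of 0.52 (SE 0.25) and 0.22 (SE 0.11) and were below the threshold. SEMA4A passed only without siControl replicate 1 (adjusted p = 0.0382, range 0.0382 to 0.414).

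Both class 5 semaphorins, which carry thrombospondin repeats beside the sema domain, passed the threshold in opposite directions. SEMA5B measured 2.64, 2.20 and 2.26 CPM in siControl and 6.56, 6.38 and 5.65 CPM in siMETTL3, that is between 34 and 57 counts against between 116 and 139 counts. The groups were far apart relative to their spread, with a 2.60-fold rise (log2 fold change 1.38, SE 0.18, edgeR adjusted p = 5.53e-05). SEMA5A measured 26.1, 24.7 and 25.6 CPM in siControl and 19.1, 19.8 and 21.1 CPM in siMETTL3, a log2 fold change of -0.35 (SE 0.086, edgeR adjusted p = 0.00615).

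None of the 4 class 6 semaphorins, which are transmembrane ligands of A-type plexins, passed in edgeR. An unadjusted edgeR p under 0.05 was found for 2 of them, and for 7081 of all 15311 tested genes. DESeq2 and limma-voom each called 1, SEMA6D, where they called 33.9% and 37.9% of all genes they tested. In siControl, SEMA6D was the most abundant semaphorin per kilobase of transcript but stood 16th of the 31 members per kilobase of gene span. SEMA6D measured 203, 216 and 289 CPM in siControl and 203, 184 and 185 CPM in siMETTL3. The groups overlapped at 203 CPM, and siControl replicate 3 stood apart from the other control libraries. The log2 fold change of SEMA6D was -0.30 (SE 0.12, edgeR adjusted p = 0.0802), while it was -0.40 without siControl replicate 1 (adjusted p = 0.0189) and -0.14 without siControl replicate 3 (adjusted p = 0.0446, range 0.000723 to 0.176 over all alternatives). SEMA6A measured 120, 119 and 121 CPM in siControl and 128, 129 and 135 CPM in siMETTL3 (log2 fold change 0.12, SE 0.054, edgeR adjusted p = 0.0867). SEMA6A passed with total count scaling (adjusted p = 0.0452) and was at 0.017 with an offset for gene span (adjusted p = 0.834, range 0.0452 to 0.848 over all alternatives). SEMA6C had a log2 fold change of -0.27 (SE 0.15), and SEMA6B had 4 to 14 counts per library.

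SEMA7A, the lipid-anchored semaphorin that binds PLXNC1 and beta-1 integrins, rose. It measured 20.3, 19.0 and 15.4 CPM in siControl and 23.6, 24.3 and 23.9 CPM in siMETTL3, a log2 fold change of 0.39 (SE 0.10, edgeR adjusted p = 0.0100).

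The plexins contained the largest change of the family. PLXNA2, a receptor for class 6 semaphorins and, with neuropilins, for class 3 semaphorins, measured 162, 149 and 143 CPM in siControl and 609, 591 and 612 CPM in siMETTL3. Raw counts rose from between 2162 and 3499 to between 12529 and 12857. The spread within each group was small beside the 3.98-fold difference (log2 fold change 1.99, SE 0.061, edgeR adjusted p = 3.18e-10). PLXNA2 accounted for 20.0%, 19.6% and 20.5% of all A-type plexin counts in the siControl libraries and for 50.9%, 49.1% and 51.3% in the siMETTL3 libraries.

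The other A-type plexins differed little between the groups. PLXNA4, which binds SEMA3A with NRP1 and class 6 ligands directly, measured 84.3, 78.7 and 85.3 CPM in siControl and 92.7, 97.6 and 96.4 CPM in siMETTL3 (log2 fold change 0.21, SE 0.059, edgeR adjusted p = 0.0133). The PLXNA4 call was lost when siControl replicate 2, or siMETTL3 replicate 2 or 3, was left out, and with an offset for gene span (adjusted p from 0.00271 to 0.0812 over all alternatives). PLXNA1 ranged from 454 to 547 CPM in siControl and from 467 to 494 CPM in siMETTL3, with the lowest control value in replicate 3 (log2 fold change -0.081, SE 0.068, edgeR adjusted p = 0.382). Without that library it passed at -0.15 (adjusted p = 0.0106, range 0.0106 to 0.818). PLXNA3 had a log2 fold change of 0.14 (SE 0.096).

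Levels of different genes can be compared only per length. Per kilobase of the canonical transcript, PLXNA1 stood first of the 31 members in siControl at 54.4 ± 5.13 CPM (SD, n = 3), and PLXNA2 stood ninth at 13.2 ± 0.834 CPM. In siMETTL3 the same scale gave 52.5 ± 1.01 CPM for PLXNA2 and 51.4 ± 1.52 CPM for PLXNA1, neighbours that did not differ beyond their spread. Since the counts cover introns as well, the order depends on the length used: per kilobase of gene span, PLXNA1 remained ahead at 9.81 ± 0.290 CPM against 2.72 ± 0.0523 CPM for PLXNA2.

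Of the B-type plexins, PLXNB1 and PLXNB2, which are receptors of class 4 semaphorins, were lower. PLXNB1 measured 56.5, 51.2 and 49.98 CPM in siControl and 31.9, 35.5 and 31.7 CPM in siMETTL3, so that 62.8% of the control level remained (log2 fold change -0.67, SE 0.078, edgeR adjusted p = 2.00e-05). PLXNB2, the second most abundant member per kilobase in siControl on either length scale, measured 279, 276 and 253 CPM in siControl and 201, 208 and 194 CPM in siMETTL3 (log2 fold change -0.42, SE 0.059, edgeR adjusted p = 9.04e-05). In both genes the groups were clearly apart. PLXNB3 had only 22 to 56 counts per library, and its log2 fold change of 0.64 (SE 0.25) had an edgeR adjusted p of 0.0584. It passed with a minimum of 10 counts in every library (0.0418) and without siControl replicate 1 (0.0330), within a range of 0.0330 to 0.166. Of its span, 19.4% is shared with SRPK3 on the same strand, so reads of both genes can be in the PLXNB3 value. SRPK3 had 46 to 127 counts per library and a log2 fold change of 0.50 (edgeR adjusted p = 0.137).

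PLXND1, the receptor of SEMA3E, rose from 103, 98.3 and 93.3 CPM in siControl to 133, 143 and 130 CPM in siMETTL3. Its groups did not overlap (log2 fold change 0.46, SE 0.061, edgeR adjusted p = 6.43e-05). PLXNC1, the receptor of SEMA7A, ranged from 49.8 to 59.0 CPM in siControl and from 49.4 to 50.4 CPM in siMETTL3, and its groups overlapped (log2 fold change -0.12, SE 0.072, edgeR adjusted p = 0.208). PLXNC1 passed with an offset for gene span (-0.22, adjusted p = 0.0170) and was at -0.063 without siControl replicate 3 (adjusted p from 0.0124 to 0.509 over all alternatives).

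Both neuropilins fell. NRP1, which binds SEMA3A and vascular endothelial growth factors, measured 217, 204 and 211 CPM in siControl and 143, 152 and 154 CPM in siMETTL3, a fall to 71.2% of the control level (log2 fold change -0.49, SE 0.056, edgeR adjusted p = 1.73e-05). NRP2, which binds SEMA3F, measured 111, 97.7 and 107 CPM in siControl and 91.5, 90.2 and 93.2 CPM in siMETTL3. Its difference was smaller (log2 fold change -0.20, SE 0.062, edgeR adjusted p = 0.0196) and was below the threshold when any one siMETTL3 library was left out (adjusted p from 0.000223 to 0.0734 over all alternatives). The sum of both neuropilins went from 316 ± 13.3 to 241 ± 6.24 CPM (SD, n = 3).

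Ligands and the receptors they are known to use went in the same direction in some pairs and in opposite directions in others. SEMA3A and NRP1 both fell, as did SEMA4C and PLXNB2. SEMA3E fell while PLXND1 rose, and SEMA4D rose while PLXNB1 fell. SEMA7A rose with PLXNC1 below the threshold, and PLXNA2 rose with SEMA6A below the threshold. SEMA5A fell with PLXNB3 below the threshold, and NRP2 fell with SEMA3F below the threshold. Neither SEMA6D nor PLXNA1 passed. These pairs restate the values above, and no test of a pair was made.

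**Figure D3:**
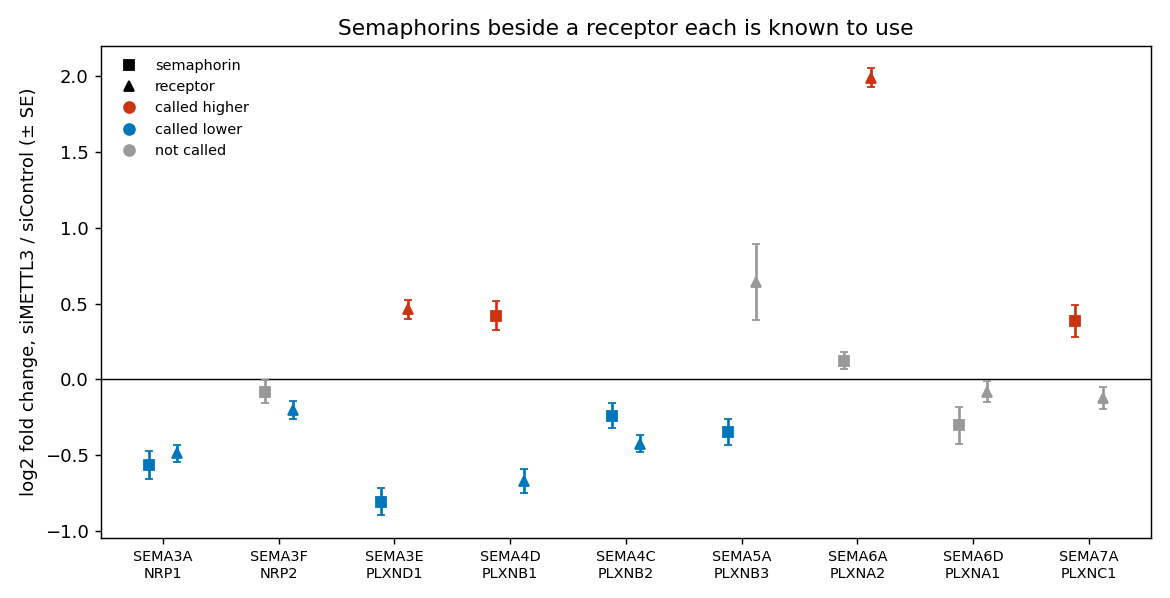
Log2 fold change (siMETTL3 against siControl, with its standard error) of 9 semaphorins (squares) beside a plexin or neuropilin that each is known to use (triangles). SEMA3E at -0.81 and PLXND1 at 0.46 lie on opposite sides of 0, as do SEMA4D at 0.42 and PLXNB1 at -0.67, whereas SEMA3A at -0.57 and NRP1 at -0.49 lie on the same side.

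The call was kept in every alternative that tested the gene for 12 of the 16 called members, and 4 (NRP2, PLXNA4, SEMA4B and SEMA4C) lost it in at least 1. Of the 15 members without a call, 7 passed in at least 1 alternative and 8 in none. PLXNA2 stayed between 1.90 and 2.04, SEMA5B between 1.27 and 1.47, SEMA3E between -0.89 and -0.71 and PLXNB1 between -0.73 and -0.62 on the log2 scale.

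**Figure D4:**
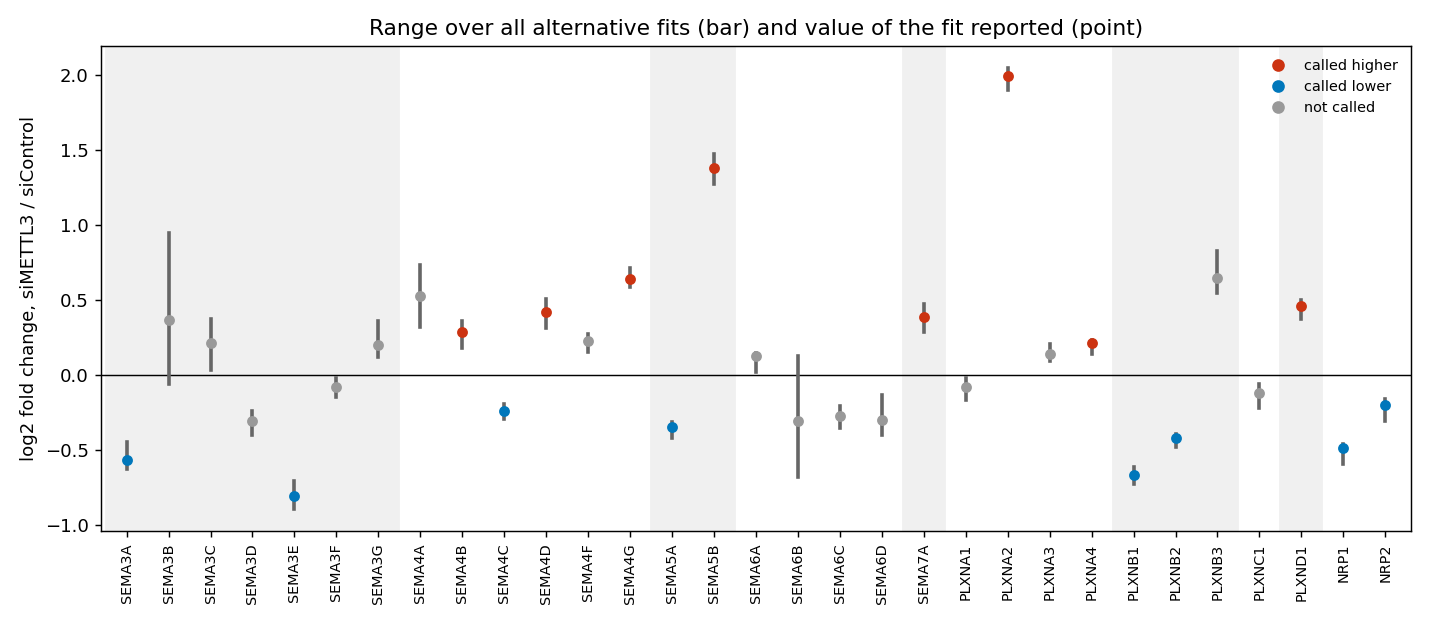
Log2 fold change of each member in the fit reported (point, coloured by call) and the range over it and the 18 alternative fits (bar). The bars of SEMA3B and SEMA6B, which have few counts, cross 0, and the bar of PLXNA2 runs from 1.90 to 2.04.

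Several properties that the gene symbols do not fix were compared. The gene spans run from 9989 bases (SEMA3B) to 590123 bases (SEMA6D), and 14 of the 31 exceed 100 kb. Among all 3397 tested genes of at least 100 kb, 28.3% were higher and 15.7% were lower, against 15.8% and 20.2% of the 11914 shorter genes. Of the 14 long members, 4 were higher and 5 were lower (28.6% and 35.7%). Of the 17 shorter ones, 4 were higher and 3 were lower. With an offset for span length, 6 members were higher and 12 lower, against 8 and 8 without it. The same offset turned the split over all tested genes from 2849 higher and 2937 lower to 2278 higher and 3754 lower.

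The sequence GGACT, a common form of the m6A consensus, was counted in the canonical transcripts (GENCODE release 44). Its median density was 1.03 per kilobase in the 31 members and 0.929 per kilobase in 14591 tested genes with a transcript. Higher members had a median of 1.34 per kilobase (0.772 to 1.56), lower members 0.893 per kilobase (0.247 to 1.51) and members without a call 1.07 per kilobase (0.443 to 2.07), so these ranges overlapped widely. PLXNA2 held 18 such sites in 11508 bases, and SEMA3A held 2 in 8113 bases. A sequence match is not a measured m6A site, and m6A was not measured in these tables.

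Of the 19 pairs of neighbouring members on a chromosome, 4 lie less than 1000000 bases apart. SEMA3C, SEMA3E, SEMA3A and SEMA3D follow one another on the minus strand of chromosome 7 between 80742538 and 85186855, and the gap between SEMA3E and SEMA3A is 306638 bases. On chromosome 3, SEMA3F and SEMA3B lie 78483 bases apart. PLXNA2 lies alone on chromosome 1 (208022242 to 208244384, minus strand), where the nearest member, SEMA4A, is 51844490 bases away.

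The rest of the pathway was described with a list of 60 co-receptors, other neuropilin ligands and plexin effectors, of which 59 were found in the tables and 55 were tested. Of these, 14 (25.5%) were higher and 8 (14.5%) were lower, against 18.6% and 19.2% of all tested genes, and the median log2 fold change was 0.034. The number of higher genes was 8 without siControl replicate 2, 8 without siMETTL3 replicate 1 and 9 without siMETTL3 replicate 2. Over all tested genes the number higher also fell, from 2849 in the reported fit to 2178, 2091 and 2131 in those fits. With the offset for gene span the list held 6 higher and 14 lower genes, so its balance of directions depends on that setting. Over all tested genes that offset gave 2278 higher and 3754 lower.

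The 5 higher genes with the smallest adjusted p are given first. RAP1A, a small GTPase of the kind that plexins inactivate, rose from 66.6 ± 2.34 to 98.9 ± 4.43 CPM (SD, n = 3), a log2 fold change of 0.57 (edgeR adjusted p = 1.04e-05), with 20.7% of its span shared with INKA2. FARP2, a Rac exchange factor that acts downstream of plexin A, rose from 55.3 ± 3.31 to 75.5 ± 1.99 CPM (log2 fold change 0.45). The actin oxidases MICAL2 and MICAL3 had log2 fold changes of 0.61 and 0.42, and the Rac exchange factor TIAM1 had 0.30. The other actin oxidase of the list, MICAL1, was lower at -0.25 (edgeR adjusted p = 0.0201), so that 2 of the 3 MICAL genes were higher and 1 was lower. Of the 7 tested small GTPases of the list, RAP1A and RAC1 (log2 fold change 0.18) were higher and the other 5 had no call. Over all tested genes 18.6% were higher and 19.2% lower, and the MICAL and GTPase groups are too small to be set apart from these shares. MICAL1 and RAC1 were chosen after their values were seen. MICAL1 shares 15.4% of its span with ZBTB24 on the same strand.

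The 5 lower genes with the smallest adjusted p had different roles. ITGB1, the beta-1 integrin subunit that binds SEMA7A, went from 128 ± 6.71 CPM down to 79.8 ± 3.72 CPM (log2 fold change -0.69, edgeR adjusted p = 2.56e-06), and its partner ITGA1 fell by 0.36 on the log2 scale. DPYSL3, a collapsin response mediator protein gene, had 172 ± 3.23 CPM in siControl and 108 ± 2.90 CPM in siMETTL3, and fell by 0.67 on the log2 scale (edgeR adjusted p = 8.75e-07). The 5 collapsin response mediator genes did not move one way: CRMP1 (0.22, edgeR adjusted p = 0.00611) and DPYSL5 (0.23, adjusted p = 0.00971) were higher, DPYSL3 was lower, and DPYSL2 and DPYSL4 had no call. CRMP1 and DPYSL5 were named after their values were seen. Among all tested genes, 18.6% were higher and 19.2% were lower. CDK5, a kinase of collapsin response mediators, fell by 0.38, and RASA1, a Ras GTPase-activating protein gene, fell by 0.35. RASA1 shares 59.3% of its span with CCNH on the opposite strand, so reads of both genes can be in its value. CCNH had 2634 to 3708 counts per library and a log2 fold change of -0.47 (edgeR adjusted p = 0.000297). CRMP1 shares 45.7% of its span with EVC on the opposite strand, so reads of both genes can be in its value. EVC had a log2 fold change of 0.29 (edgeR adjusted p = 0.0120). CDK5 shares 16.85% of its span with SLC4A2 on the opposite strand.

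**Figure D5:**
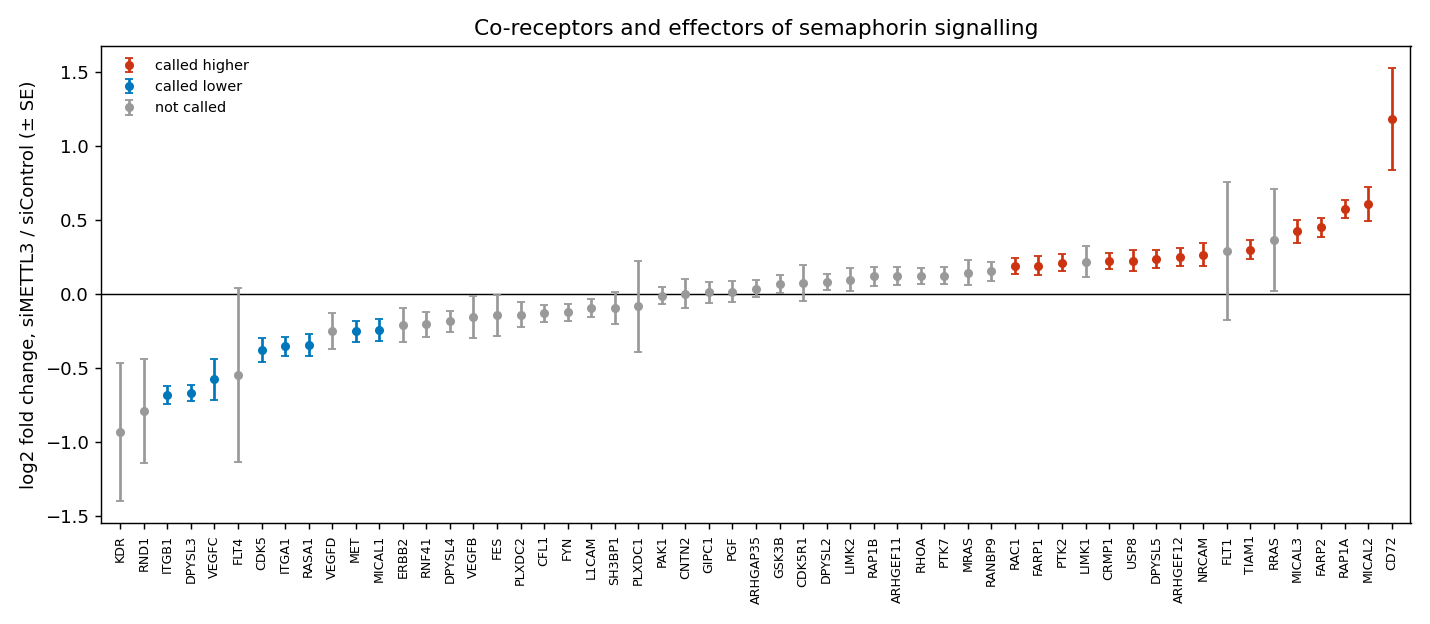
Log2 fold change (siMETTL3 against siControl, with its standard error) of the 55 tested pathway genes, ordered by value and coloured by the edgeR call. Of these, 14 are called higher and 8 lower, and the widest bars, those of FLT4, FLT1 and KDR, belong to genes with at most 26 counts in a library.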

How the data were processed

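Libraries were made from poly(A) RNA, per the labels. The deposited files are tables of raw read counts, 1 for each library. The authors, per the file headers, counted reads with featureCounts 1.5.3 over whole gene spans of GENCODE release 33, introns included. A read over several genes counted for each, and no strand option was set. Per the submitters' processing notes, Trimmomatic 0.36, HISAT2 2.1.0 and FastQC 0.11.5 were also used, with the build GRCh38. The library names in the headers carry the word "input".

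Genes were filtered with filterByExpr and scaled by TMM (trimmed mean of M-values), and the groups were compared over the whole table with edgeR 4.0.16 (R 4.3.3, robust quasi-likelihood F-test, 6 libraries, no covariate). P-values were adjusted by Benjamini-Hochberg over 15311 genes with a threshold of 0.05. Standard errors were derived from the log2 fold change and its F statistic. CPM values were computed from the deposited counts and scaled library sizes. The fit was tested on simulated data. Transcripts came from GENCODE release 44, and all 31 member spans overlapped the release 44 gene of the same symbol.

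The 18 alternatives were RLE, upper quartile and total count scaling, no filter, a minimum of 10 counts in all libraries, limma-voom (limma 3.58.1), DESeq2 1.42.0, a block for the replicate number, non-robust dispersion, a loess offset for span length without and with the block, genes without overlaps, and each library left out. The members and lists were chosen with earlier results of these data known. Every member was named, and of the pathway list up to 5 genes in each direction with the smallest adjusted p. Libraries of a group differed by more than sampling noise (chi-square per degree of freedom 3.05 to 16.1). 1 gene of the sympathetic marker list is not reported here.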

Additional observations from a re-analysis of the deposited data

How the results depend on the processing

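The number of members called higher, 8 in the reported fit, went from 6 to 10 in the 6 fits that each leave out 1 library, and the number called lower, also 8, went from 6 to 10. The share of all tested genes called went from 27.2% to 41.3% in those fits, against 37.8% in the reported fit. METTL3 stayed between -0.74 and -0.69 in those fits and was past the threshold in every alternative. For the pathway list, 14 higher and 8 lower in the reported fit, the fits without 1 library gave 8 to 17 higher and 6 to 11 lower. The span length offset gave 6 higher and 14 lower pathway genes, and with the replicate block 7 higher and 15 lower, and the cause was not tested. On genes without overlaps 8 pathway genes were higher, where only 38 of the list were tested. Of all 9518 genes tested in that fit, 1852 were higher. Signs changed for 2 genes with few counts, whose values without 1 library ranged from -0.68 to 0.13 for SEMA6B and from -0.061 to 0.95 for SEMA3B. SEMA6B had 0.13 without siControl replicate 3 and 0.065 without siMETTL3 replicate 2, and SEMA3B had -0.061 without siMETTL3 replicate 3. The labels state no pairing of libraries, and the reported fit used none. Deviations from the group means correlated at 0.040, 0.049 and 0.067 for equal replicate numbers and at -0.064 to 0.026 for unequal ones. The values for equal numbers were small, but each lay above all those for unequal numbers. With the replicate block 8 members were higher and 9 lower, SEMA3D being the addition, and 6166 genes were called in all. Depth limits SEMA3B, SEMA6B and PLXNB3, which had at most 56 counts in a library.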

Other observations

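The chromosome 7 interval that holds SEMA3C, SEMA3E, SEMA3A and SEMA3D contains 7 genes of the tables (80742538 to 85186855, GRCh38), and all were tested. It was looked at after the member values had been seen. Of these 7, 4 were lower in edgeR, 2 of which are the members that prompted the look, where 19.2% of all tested genes were lower. Beside SEMA3E and SEMA3A these were CACNA2D1, a calcium channel subunit gene, with a log2 fold change of -0.48 (edgeR adjusted p = 0.000105), and HGF, the ligand of the MET receptor, with -0.33 (edgeR adjusted p = 0.0161). HGF was below the threshold without siMETTL3 replicate 1 or 2 (adjusted p up to 0.0917, from 6.45e-05 over all alternatives). PCLO, which lies between CACNA2D1 and SEMA3E, had a log2 fold change of 0.012 (edgeR adjusted p = 0.918), and SEMA3C, at the edge of the interval, had 0.21.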
